A study of Mus musculus with 8 samples.

Results

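The Myc network genes examined here were Myc, Mycn, Mycl, Max, Mxd1, Mxd4, Mxi1 and Mnt, 8 of 55413 annotated mouse genes. They were chosen by name, as the Myc paralogs, their shared partner and the repressors that compete for it. Chromatin accessibility was measured at the gene bodies and 20 kb on either side, where 42 of 73710 accessible regions lay. Of these, 14 were within 1 kb of a transcription start site (TSS) of the gene itself (promoter regions), 22 were over 1 kb from every annotated TSS (distal regions), and 6 were at the TSS of a neighbouring gene. The data were bulk ATAC-Seq peak lists, in which the Tn5 transposase marks open DNA, from hepatocytes of male mice (strain C57BL/6 in the labels and C57BL/6J in the study's methods) isolated by collagenase perfusion of the liver. Undamaged liver (0 h) and livers at 48, 72 and 96 h after partial hepatectomy (PHx) were each represented by 2 libraries, from animals aged 10 to 12 weeks on normal diet per the labels. PHx removes part of the liver and the remnant regrows, and the comparisons ask which sites near these genes gained or lost accessibility during that regrowth. The study's text describes the bulk replicates of undamaged and 48 h livers as hepatocyte preparations from separate mice. The study's methods describe primary hepatocytes from several mice at every time point and statistics on independent replicates. For 72 h and 96 h, however, no source used here ties a library to an animal. The p-values below rest on a spread pooled over all 8 libraries, and at those times the spread between libraries may be technical.

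Myc, Mycn and Mycl encode transcription factors that promote cell growth and proliferation, and Myc is a known early response gene of the regenerating liver. They bind DNA as dimers with Max, preferentially at the E-box CACGTG. Mxd1, Mxd4, Mxi1 and Mnt encode Max partners that bind the same sites and repress transcription, so the balance between both sets of partners sets the output of the network.

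The 8 lists held 105206 to 154577 distinct intervals, and each interval was given a percentile within its own list (100 for the lowest p-value). The read depth is unknown. The fold enrichment over background was lower overall at 48 h, with medians of 6.70 and 7.21 over the 50000 strongest intervals against 9.35 and 8.88 for 0 h, so time points were compared on quantile-normalised log2 fold enrichment or on percentiles. The promoters of all 5 hepatocyte markers were listed in both 0 h libraries, 3 and 4 of them in the 48 h libraries, 4 in each 72 h library and 5 and 4 in the 96 h libraries, the missing one being Alb in each case and also Ttr in 48 h replicate 1. The summed percentile of the 5 markers was 355 to 390 for 0 h, 215 to 290 for 48 h, 267 to 297 for 72 h and 298 to 363 for 96 h. Promoters of 0 of 4 lymphocyte markers were listed in any library, whereas 1 to 2 of 5 Kupffer cell, 2 to 3 of 5 endothelial, 2 to 4 of 4 stellate and 1 to 3 of 4 cholangiocyte markers were. The summed percentile of the endothelial markers was higher in all 6 PHx libraries, with 61.5 to 73.6 for 0 h, 80.6 to 91.0 for 48 h, 91.2 to 127.5 for 72 h and 82.9 to 94.2 for 96 h, and Stab2 and Lyve1 were unlisted throughout. That of the stellate markers was 157 to 188 at 0 h and higher at 48 h (198 to 240), and overlapped with 0 h at 72 h (166 to 247) and 96 h (178 to 184). Those of Kupffer cell markers (25.1 to 42.9 at 0 h, 4.24 to 65.1 after PHx) and cholangiocyte markers (126 to 160 and 97.6 to 188) overlapped between 0 h and PHx, with Csf1r and Vsig4 of the first and Krt19 of the second unlisted throughout. In bulk libraries, fewer cells with an open site and less opening per cell cannot be told apart, and the part of these shifts in the differences described below was not tested. The list of 72 h replicate 2 carries a sequencing-run label that differs from that of the other 7.

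The regions that the comparisons turned on are shown first, as 300 bases of mm10 sequence (GRCm38.p6, plus strand) around the summit, the position of the strongest signal. Mycl distal 1 is the intergenic site with the lowest p at 48 h, Mycn promoter 2 is the promoter region with the largest difference at that time, and Max promoter 1 is the strongest region of the whole network, with its E-box in capitals.
Mycl distal 1, chr4:122978839-122979138: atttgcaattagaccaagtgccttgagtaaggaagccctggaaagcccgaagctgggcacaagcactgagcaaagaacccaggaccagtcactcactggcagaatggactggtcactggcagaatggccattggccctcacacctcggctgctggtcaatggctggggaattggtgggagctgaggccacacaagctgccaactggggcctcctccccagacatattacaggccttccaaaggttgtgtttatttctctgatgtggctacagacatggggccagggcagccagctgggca
Mycn promoter 2, chr12:12942435-12942734: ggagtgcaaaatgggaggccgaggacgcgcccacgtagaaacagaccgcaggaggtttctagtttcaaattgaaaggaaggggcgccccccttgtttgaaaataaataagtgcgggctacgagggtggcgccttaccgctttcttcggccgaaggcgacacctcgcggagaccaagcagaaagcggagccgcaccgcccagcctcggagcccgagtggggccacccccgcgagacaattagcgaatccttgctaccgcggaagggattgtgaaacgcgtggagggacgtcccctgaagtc
Max promoter 1, chr12:76962197-76962496: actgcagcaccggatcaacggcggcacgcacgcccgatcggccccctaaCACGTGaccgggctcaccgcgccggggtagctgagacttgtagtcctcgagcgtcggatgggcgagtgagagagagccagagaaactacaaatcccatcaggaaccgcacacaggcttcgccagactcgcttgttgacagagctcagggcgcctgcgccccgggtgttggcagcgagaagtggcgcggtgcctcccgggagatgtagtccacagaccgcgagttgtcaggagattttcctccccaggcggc
The Max E-box, at chr12:76962246-76962251, lies between the outermost Max TSS (76962201, minus strand) and the summit of the peak (76962347). The Mycl distal 1 and Mycn promoter 2 windows held none of the 7 motifs searched.

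The network's own binding motif was present at some of its members. CACGTG, which reads the same on both strands, was found around the summit of 3 of 14 promoter regions and 3 of 22 distal regions. Over the whole series 7.083% of 17649 regions at a TSS and 4.581% of 56061 other regions held it in a window of the same length. The 6 occurrences are printed with 12 bases on either side, the motif in capitals, to show the sequence around each.
Max promoter 1, chr12:76962234-76962263: tcggccccctaaCACGTGaccgggctcacc
Mxd4 promoter 1, chr5:34187912-34187941: gcttagcaacagCACGTGgtggcccagccc
Mnt promoter 2 (intron), chr11:74832290-74832319: cccgcccccgacCACGTGcacgggggacac
Mycl distal 3 (intergenic), chr4:122985365-122985394: aggtttacgtgaCACGTGgtcaagagttcc
Mycl distal 6 (UTR exon), chr4:123001840-123001869: gctagcagccgtCACGTGagcatctttcag
Mxd1 distal 1 (intergenic), chr6:86636560-86636589: ggagcttggcctCACGTGcacagagcttgc
In the RefSeq promoter windows of the same length, 7 of 8 members had an entry (Myc had none), with 9 windows. Of these, 3 held CACGTG (Max, Mxd4 and Mnt), against 7.15% of all 32851 windows. The windows of Max and Mxd4 cover the E-boxes printed above, so they add no further occurrence. That of Mnt (chr11:74830674-74830973) does not reach the printed Mnt E-box and holds a different one. Myc promoter 2 held 1 match to the E2F motif TTTNGCGC and Mxi1 promoter 4 held 1 match to the FOXA motif TGTTTAC. The AP-1 motif TGANTCA was found at Mycl distal 5, Mnt distal 3 and an Mxi1 intronic region at the TSS of AC133451.2, and the TCF motif CTTTGAT at Mycl distal 6. These motifs were sought on both strands, and among other regions 12.08% held AP-1 and 5.531% held TCF. The STAT motif TTCNNNGAA and the HNF4 motif CAAAGTCCA had 0 matches in the 42 windows, where 6.159% of regions at a TSS and 9.659% of other regions held the first and 0.742% and 1.921% the second. Among regions at a TSS, 5.632% held the AP-1, 1.983% held the E2F and 3.281% the FOXA motif.

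Every member had a listed promoter interval in all 8 libraries, and the levels spanned a wide range already at 0 h. By the percentile of its strongest promoter interval, Max, the obligate partner, stood highest at 99.8 and 99.7 in the pair of 0 h libraries, or rank 271 and 272 of the lists. It was followed by the repressor gene Mxi1 (99.1 and 98.9), Mxd1 (98.1 and 97.4), Mxd4 (91.4 and 92.8), Mycn (95.4 and 88.8), Mnt (84.1 and 85.7), Myc (86.6 and 82.4) and Mycl (76.7 and 74.0). The values of Mxd4 and Mycn overlapped, as did those of Mnt and Myc, and the other neighbours in this order did not. The promoters of Max and of 2 repressor genes thus ranked above those of the 3 Myc paralogs at 0 h. The median listed coding promoter stood at 90.0 and 89.2, so that Mnt, Myc and Mycl were below it.

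Myc, the paralog best known from regenerating liver, had a higher promoter percentile in every PHx library than in either 0 h library. The values were 92.2 and 87.6 for 48 h, 93.2 and 91.4 for 72 h and 93.4 and 90.9 for 96 h. Of 13220 coding promoters listed in all 8 libraries, 6.89% were higher in all 6 PHx libraries in this way, and 1 of the 8 members was. The separation was not seen when ranks, fold enrichment, only intervals with q under 0.05 or only intervals within 500 bp of a TSS were used. The interval behind these values, Myc promoter 1 (chr15:61984299-61985897), peaked 898 bp upstream of the first Myc TSS and is also within 1 kb of the TSS of the transcript Gm37947, and accessibility at these start sites cannot be told apart. Its normalised log2 fold enrichment was 2.39 and 2.54 for 0 h, 2.97 and 2.59 for 48 h, 2.73 and 2.56 for 72 h and 2.73 and 2.83 for 96 h. The difference at 48 h was 0.32 ± 0.24 (SE) and did not pass the test (limma, adjusted p = 0.706). Leaving out 48 h replicate 1 gave 0.13, leaving out 48 h replicate 2 gave 0.51 and leaving out 0 h replicate 2 gave 0.21. Myc promoter 2, at an internal TSS of the gene (chr15:61986949-61987387, summit in an intron), varied more between replicates, from 62.4 and 72.5 for 0 h to 58.3 and 84.2 for 96 h.

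The other Myc paralogs are Mycl and Mycn, and their courses were not tested against that of Myc. Mycl, which is known mainly from neuroendocrine tissue and dendritic cells, had promoter percentiles of 76.7 and 74.0 for 0 h, 89.7 and 87.5 for 48 h, 85.6 and 82.0 for 72 h and 87.4 and 70.5 for 96 h. Both 48 h and both 72 h libraries lay above 0 h, and the 96 h libraries lay on either side. The separation at 72 h was not seen by rank or by raw fold enrichment, and that at 48 h was seen by rank but not by raw fold enrichment. Mycn, a paralog used in embryonic and neural tissue, had 95.4 and 88.8 for 0 h, 87.2 and 85.2 for 48 h, 96.1 and 93.8 for 72 h and 93.6 and 93.7 for 96 h. Its lowest values were those of the 48 h libraries, and those of 72 h and 96 h overlapped with 0 h. The fold enrichment of Mycn promoter 2 (chr12:12942252-12942900, 671 bp upstream of the TSS) was 15.8 and 12.6 for 0 h and 7.92 and 6.94 for 48 h, and its normalised log2 value differed by -0.50 ± 0.26 (limma, adjusted p = 0.544). For Mycl promoter 1 the difference at 48 h was 0.40 ± 0.26 (limma, adjusted p = 0.638), and it was 0.23 without 48 h replicate 1.

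**Figure D1:**
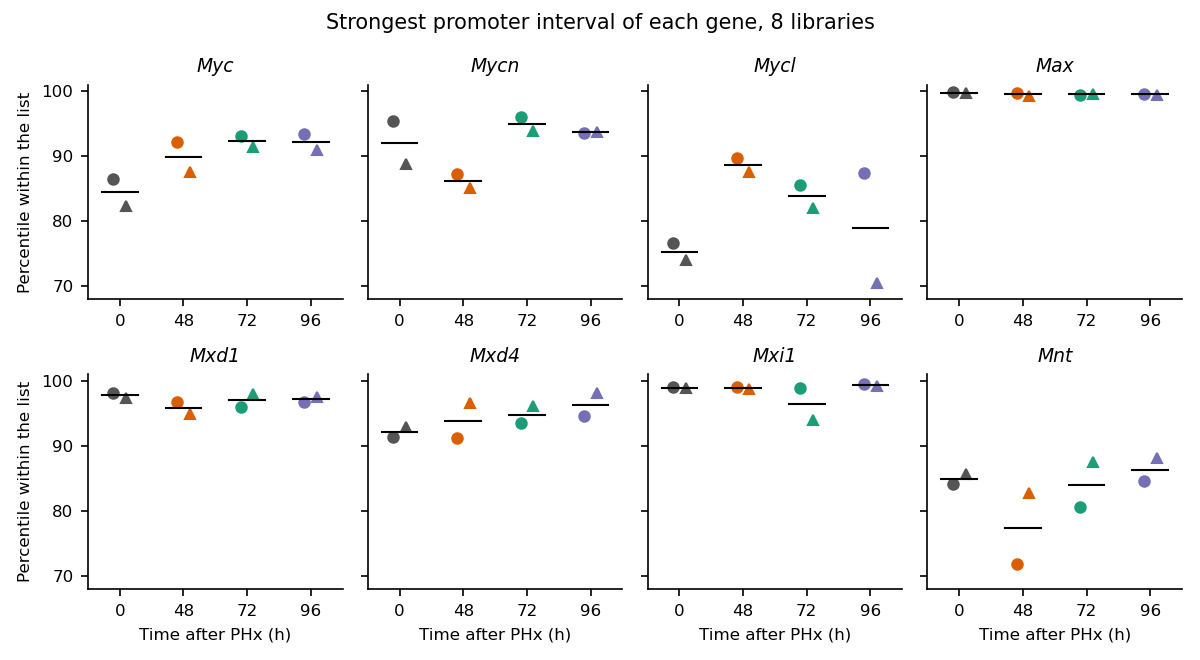
Percentile of the strongest interval within 1 kb of a TSS (vertical axis, from 68) against time after PHx (horizontal axis, h) for the 8 genes. Circles are replicate 1, triangles replicate 2 and lines the mean of the 2 libraries. Max stays between 99.3 and 99.8, Myc is higher in all 6 PHx libraries than at 0 h, and Mycl at 96 h has the widest gap between replicates (87.4 and 70.5).

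Max was near the top of all lists, and its percentile was lower in every PHx library than at 0 h. Its percentiles were 99.8 and 99.7 for 0 h, 99.7 and 99.3 for 48 h, 99.5 and 99.6 for 72 h and 99.5 and 99.4 for 96 h. Of the coding promoters 3.78% were lower in all 6 PHx libraries, and 1 of 8 members was. The normalised log2 value of Max promoter 1 was 4.27 and 4.35 for 0 h and 4.38 and 4.16 for 48 h, and these overlapped (difference -0.04 ± 0.24, limma adjusted p = 0.973). It was 3.97 and 4.17 for 72 h and 4.02 and 4.26 for 96 h, all below both 0 h values, with differences of -0.24 ± 0.24 and -0.17 ± 0.24 that did not pass the test (limma, adjusted p = 0.93 and 0.988). The raw fold enrichment was 21.4 and 22.3 for 0 h and 15.5 to 19.7 in the 6 PHx libraries.

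The 4 repressor genes are given in turn. Mxd1, an antagonist of Myc in differentiating cells, had percentiles of 98.1 and 97.4 for 0 h and of 96.7 and 94.9 for 48 h, and overlapped with 0 h at 72 h (96.1 and 97.9) and 96 h (96.8 and 97.6). Mnt, a widely expressed antagonist, had 84.1 and 85.7 for 0 h and 71.8 and 82.8 for 48 h, and overlapped at 72 h (80.6 and 87.5) and 96 h (84.6 and 88.1). The normalised log2 differences at 48 h were 0.04 ± 0.25 for Mxd1 promoter 1 and 0.02 ± 0.27 for Mnt promoter 1. Mnt promoter 2, which gave the percentile of 84.1 for 0 h, had normalised values of 2.195 and 2.14 for 0 h and 2.11 and 1.99 for 48 h, with both 48 h values below both 0 h values (difference -0.12 ± 0.26, limma adjusted p = 0.921). Mxd4 was higher than at 0 h (91.4 and 92.8) in both 72 h libraries (93.5 and 96.1) and both 96 h libraries (94.5 and 98.1), but not at 48 h (91.2 and 96.5). By rank and by raw fold enrichment this separation of Mxd4 was not seen at 72 h or 96 h. Mxi1 had 99.1 and 98.9 for 0 h, 99.0 and 98.7 for 48 h, 98.9 and 94.0 for 72 h and 99.6 and 99.2 for 96 h. It was above 0 h at 96 h by percentile, but below by raw fold enrichment (19.3 and 20.3 for 0 h, 17.8 and 18.3 for 96 h). The low value of Mxi1 at 72 h came from replicate 2. With both 72 h libraries, the normalised log2 value of Mxi1 promoter 4 (chr19:53329198-53330382) differed from 0 h by -0.56 ± 0.26 (adjusted p = 0.786), without replicate 2 by -0.24 and without replicate 1 by -0.89.

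Counted over the 8 members, 2 promoters (Myc, Mycl) had higher and 4 (Mycn, Max, Mxd1, Mnt) lower percentiles in the pair of 48 h libraries than in either 0 h library, where 19.8% of coding promoters were higher and 22.7% lower. At 72 h, 3 (Myc, Mycl, Mxd4) were higher and 1 (Max) lower, against 25.9% and 17.0% of coding promoters. At 96 h, 3 (Myc, Mxd4, Mxi1) were higher and 1 (Max) lower, against 21.7% and 12.4%. With 2 libraries against 2, the smallest two-sided exact permutation p is 0.333, so no p was computed for these separations, and the 3 time points share the same 0 h libraries. The counts depended on the measure. By rank within the list, 1 was higher and 5 lower at 48 h (16.4% and 29.0% of coding promoters), 1 higher and 3 lower at 72 h (14.8% and 32.0%), and 2 higher and 2 lower at 96 h (13.7%, and 2694 of 13480). By raw fold enrichment, which was lower overall at 48 h, 0 were higher and 5 lower at 48 h, against 2.36% and 70.1% of coding promoters. On that scale 1 was higher and 2 were lower at both later times, against 9.3% and 36.7% of coding promoters for 72 h, and against 8.72% and 26.4% for 96 h. The lists differ in length, which moves a percentile against a rank.

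None of the network's regions was called at any time. By limma across 55123 regions with an interval in all 8 lists, a call required an adjusted p under 0.05 and a log2 difference over 0.5. There were 0 calls among the 33 tested member regions in each of the 4 contrasts, and 0.0% of all regions were called in 48 h versus 0 h, 0.0% in 72 h versus 0 h, 0.0% in 96 h versus 0 h and 0.0% in 96 h versus 48 h. The lowest adjusted p over all regions was 0.152, 0.513, 0.678 and 0.484 in these contrasts. At these thresholds the study reported differentially accessible regions from read counts, by a test that was not run here. The absence of calls is therefore not evidence of unchanged accessibility. At an unadjusted p under 0.05, 0 member regions were higher and 3 lower at 48 h than at 0 h, where the shares of all tested regions were 4.96% and 5.04%. At 72 h 0 were higher and 1 lower (3.68% and 2.68% of all regions), and at 96 h 2 were higher and 0 lower (3.11% and 2.65%). Between 48 h and 96 h, 3 were higher at 96 h and 0 lower (4.01% and 3.6%). The median difference at 48 h was 0.04 over 13 promoter regions and -0.23 over 14 distal regions, of which 10 were below 0, against 0.001 over all tested regions. At 96 h versus 48 h the distal median was 0.21 and that of all tested regions -0.004, and both contrasts share the 48 h libraries.

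**Figure D2:**
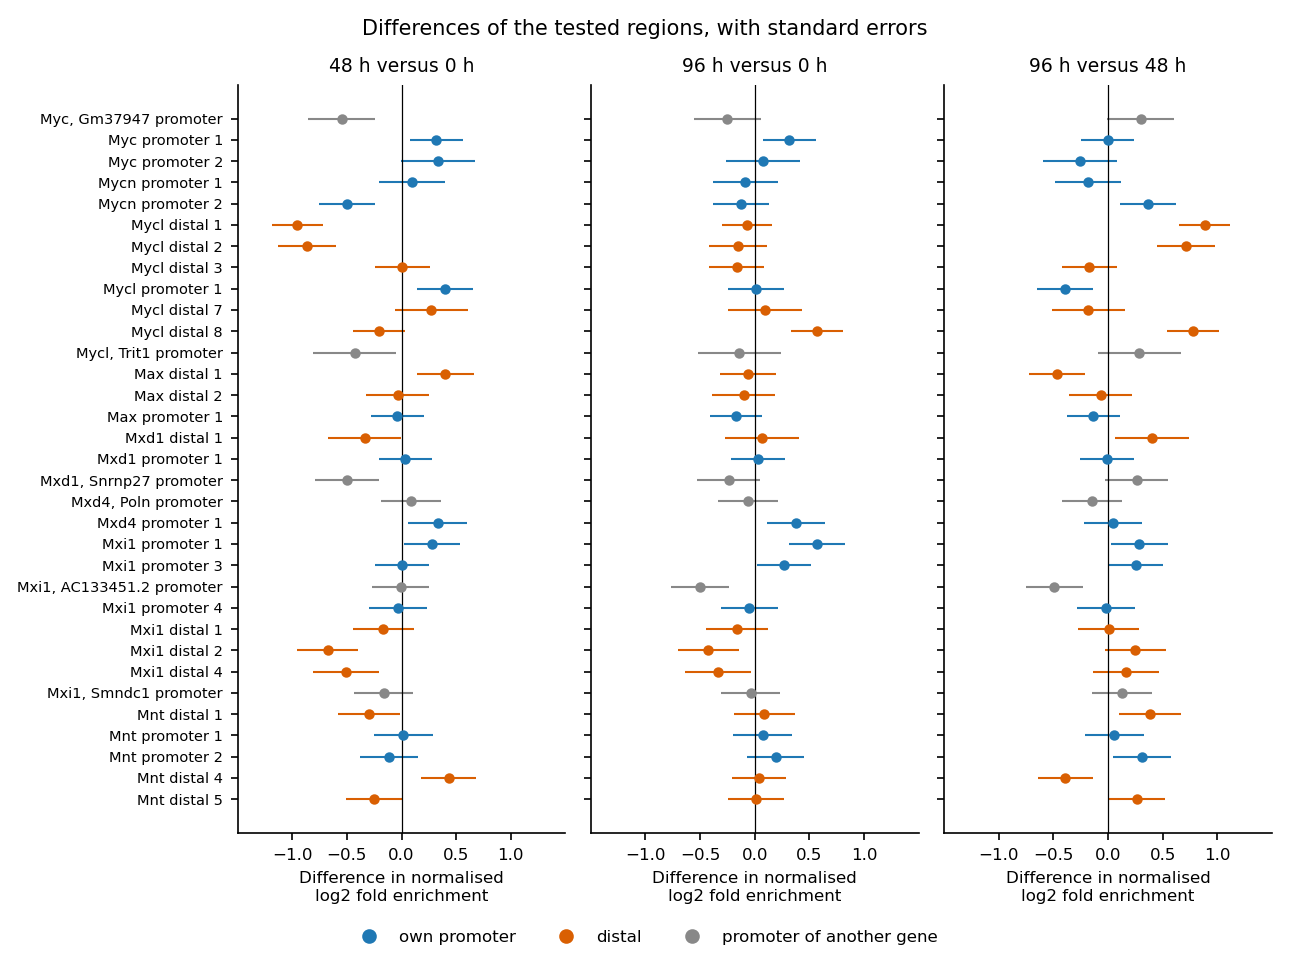
Difference in normalised log2 fold enrichment (horizontal axis) of the 33 tested regions (vertical axis), from 1 fit, for 48 h versus 0 h, 96 h versus 0 h and 96 h versus 48 h. Points are estimates and bars standard errors, coloured by class. Mycl distal 1 and Mycl distal 2 lie farthest to the left at 48 h (-0.95 and -0.87), and with Mycl distal 8 farthest to the right in 96 h versus 48 h (0.88, 0.71 and 0.78). No region passed the adjusted threshold.

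The differences with the lowest p lay in the intergenic DNA upstream of Mycl. Mycl distal 1 (chr4:122978658-122979332), whose summit is 16955 bp upstream of the first Mycl TSS and whose sequence is printed above, had a fold enrichment of 9.40 and 9.13 for 0 h, 3.53 and 4.11 for 48 h, 8.13 and 7.93 for 72 h and 8.61 and 7.74 for 96 h. Both 48 h libraries were far below the 6 others, which lay between 7.74 and 9.40. On the normalised log2 scale the values were 3.06 and 3.07 for 0 h, 2.003 and 2.23 for 48 h, 2.91 and 2.93 for 72 h and 2.99 and 3.01 for 96 h. The difference of 48 h from 0 h was -0.95 ± 0.23, a ratio of 0.517 (limma, adjusted p = 0.346). That of 96 h from 48 h was 0.88 ± 0.23 (adjusted p = 0.484). Its percentile was 86.6 and 81.3 for 0 h and 46.1 and 64.5 for 48 h. On both scales the 48 h values lay below those of all other libraries, but the differences did not pass the test over all regions. The site was named for its large difference at 48 h, and the share of all regions separated in this way was not counted.

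A weaker site beside it, Mycl distal 2 (chr4:122979775-122980044, 16020 bp upstream), was also lowest at 48 h. Its fold enrichment was 4.49 and 4.44 for 0 h, 2.04 and 2.34 for 48 h, 3.45 and 2.67 for 72 h and 3.21 and 4.28 for 96 h. The normalised log2 difference from 0 h was -0.87 ± 0.26 (limma, adjusted p = 0.353). At 72 h it was -0.53 ± 0.26 for this site (limma, adjusted p = 0.803) and -0.15 ± 0.23 for Mycl distal 1 (adjusted p = 0.966), and the difference between the sites was not tested. From 48 h to 96 h the difference of Mycl distal 2 was 0.71 (limma, adjusted p = 0.592), and it was 0.33 (adjusted p = 0.889) when regions listed in at least 6 libraries were fitted. The 2 sites lie under 1 kb apart. At 48 h its percentile in replicate 1 was 0.667, near the end of the list.

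The strongest distal site of Mycl gave a difference near 0 at 48 h. Mycl distal 3 (chr4:122985111-122985588, 10665 bp upstream), which holds an E-box, had percentiles of 91.8 and 92.5 for 0 h and 96.4 and 95.8 for 48 h, and its normalised difference was 0.005 ± 0.25. Downstream of the gene, Mycl distal 8 (chr4:123010100-123010424, intergenic), named after its values were seen, had a normalised log2 value of 2.05 in both 0 h libraries, 1.79 and 1.90 for 48 h, 1.69 and 1.99 for 72 h and 2.54 and 2.695 for 96 h. The 96 h libraries were the highest (difference from 0 h of 0.57 ± 0.24, limma adjusted p = 0.85). Mycl distal 5 (intron) and Mycl distal 6 (UTR exon), also named after their values were seen, were listed in both 0 h libraries, at percentiles of 39.9 to 54.0, and in neither 48 h list. The first was also unlisted in 72 h replicate 2 and the second in 96 h replicate 2. Over the full lists, 5371 of 315767 merged intervals were listed in both 0 h libraries and neither at 48 h. Neither was among the 50000 strongest intervals in both 0 h libraries, so neither was counted as lost.

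**Figure D3:**
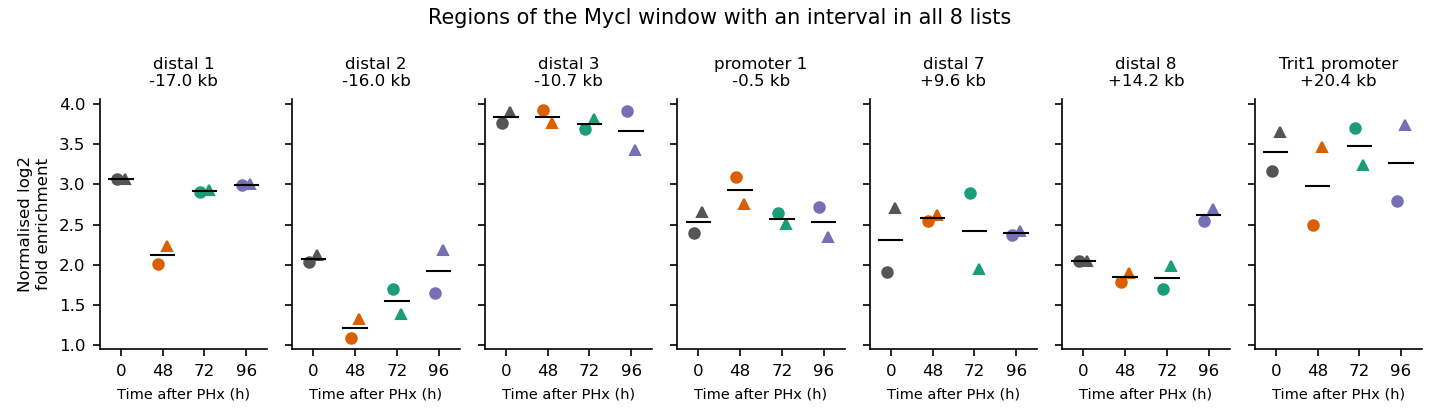
Normalised log2 fold enrichment (vertical axis) by time after PHx (horizontal axis, h) for the 7 regions of the Mycl window listed in all 8 libraries, ordered by distance of the summit from the first Mycl TSS. Circles are replicate 1, triangles replicate 2 and lines means. At 48 h distal 1 and distal 2 lie at 2.003 to 2.23 and 1.09 to 1.32, while distal 3 stays between 3.76 and 3.92.

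In the main fit, the tested distal sites of the repressor genes and of Max gave smaller differences at 48 h than this Mycl pair. The differences were not tested against each other. Under median centring Mxi1 distal 2 (-0.61) and Mycl distal 2 (-0.63) were nearly level. Mxi1 distal 2 (chr19:53359232-53360575, intronic), the strongest distal region of that gene, had a fold enrichment of 8.56 and 9.86 for 0 h, 3.53 and 5.89 for 48 h, 7.15 and 7.44 for 72 h and 6.34 and 6.14 for 96 h. Both 48 h libraries were below both 0 h libraries, as were 70.1% of coding promoters on this raw scale. On the normalised scale the values were 2.93 and 3.18 for 0 h, 2.001 and 2.75 for 48 h, 2.71 and 2.83 for 72 h and 2.54 and 2.71 for 96 h, so that 48 h replicate 2 lay within the range of the later libraries, and the difference was -0.68 ± 0.28 (limma, adjusted p = 0.451). Leaving out 48 h replicate 1 gave -0.31, and leaving out 48 h replicate 2 gave -1.06. Mxi1 promoter 1 (chr19:53310320-53310903), at the upstream TSS of the gene and named after its values were seen, had percentiles of 72.9 and 67.9 for 0 h and 86.1 and 89.2 for 96 h, with a normalised difference of 0.57 ± 0.26 (limma, adjusted p = 0.867) that was 0.33 without 96 h replicate 2.

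The distal regions with the largest positive differences at 48 h were Mnt distal 4 and Max distal 1. Mnt distal 4 (chr11:74837511-74838782, intronic) had percentiles of 87.1 and 82.4 for 0 h, 94.0 and 93.9 for 48 h, 84.3 and 89.1 for 72 h and 93.3 and 86.2 for 96 h, and a normalised difference at 48 h of 0.43 ± 0.25 (adjusted p = 0.597). Max distal 1 (chr12:76926235-76927360, intergenic, beyond the 3′ end of the gene) had 59.6 and 62.9 for 0 h and 69.7 and 83.8 for 48 h, with a difference of 0.40 ± 0.26 (adjusted p = 0.641) that was 0.20 without 0 h replicate 1. In both, the 48 h percentiles lay above those of 0 h, but both were named for their large differences at 48 h. Of coding promoters, 19.8% were higher by percentile in this way, and the share of distal regions was not counted. The strongest distal regions of the other genes were Mnt distal 5 (percentiles of 91.2 to 97.4 over the 8 libraries, difference at 48 h -0.25 ± 0.26), Max distal 2 (62.7 to 85.4, -0.03 ± 0.29) and Mxd1 distal 1 (59.6 to 93.2, -0.34 ± 0.34). Leaving out 48 h replicate 1 gave -0.82 for Mxd1 distal 1, and leaving out 48 h replicate 2 gave 0.14, so its direction rested on 1 library. That of Mnt distal 5 was -0.14 without 0 h replicate 2, and that of Max distal 2 lay between -0.31 and 0.24 with 1 library left out.

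By presence among the 50000 strongest intervals of each library, 19 of the 42 regions were present in all 8. A region was counted as gained if present in both libraries of a time point and neither at 0 h, and as lost in the reverse case. At 48 h 0 member regions were gained and 2 were lost, against 2.65% and 3.5% of all regions. The lost ones were Mxi1 distal 4 (chr19:53369193-53370019, intronic), with percentiles of 69.1 and 54.3 for 0 h and 32.5 and 59.9 for 48 h, and a region at the TSS of Gm37947 1879 bp upstream of Myc (chr15:61983337-61983686), with 77.5 and 71.3 for 0 h and 45.6 and 56.9 for 48 h. The first of these overlapped between the groups by percentile, since the last of the 50000 intervals falls at a different percentile in each list (52.5 to 67.7). At 72 h 0 were gained and 1 was lost, the Gm37947 region (51.7 and 49.6), against 2.88% and 2.74% of all regions. Its normalised log2 difference at 72 h was -0.79 ± 0.31 (limma, adjusted p = 0.726), and -1.26 when regions listed in at least 6 libraries were fitted. At 48 h it was -0.55, and -0.35 under median centring. At 96 h 0 were gained and 0 lost, against 2.23% and 2.42%, and the Gm37947 region had percentiles of 47.2 and 81.3. Both lost regions were still listed in all 8 full lists.

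The number of distal sites differed between the genes. Mycl had 5 to 10 distal intervals in a library, Mxi1 5 to 11, Mnt 4 to 10, Max 4 to 8, Mxd1 2 to 7, Mxd4 0 to 5, Myc 0 to 3 and Mycn 0 to 2. Among the 50000 strongest intervals, Myc, Mycn and Mxd4 had 0 distal intervals in every library, whereas Mycl had 2 to 7, Mnt 2 to 4, Max 1 to 3, Mxi1 1 to 5 and Mxd1 0 to 3. The 0 counts depended on the 20 kb limit. With 50 kb on either side, Myc had 2 to 3 such intervals, Mycn 1 to 2 and Mxd4 1 to 3. A window grows with the gene, from 4984 bp for Myc to 65293 bp for Mxi1 without the flanks, so the counts are not per length. Summed over the 8 genes, distal intervals numbered 31 and 34 for 0 h, 37 and 36 for 48 h, 32 and 40 for 72 h and 42 and 33 for 96 h, and these totals also move with the length of the list.

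**Figure D4:**
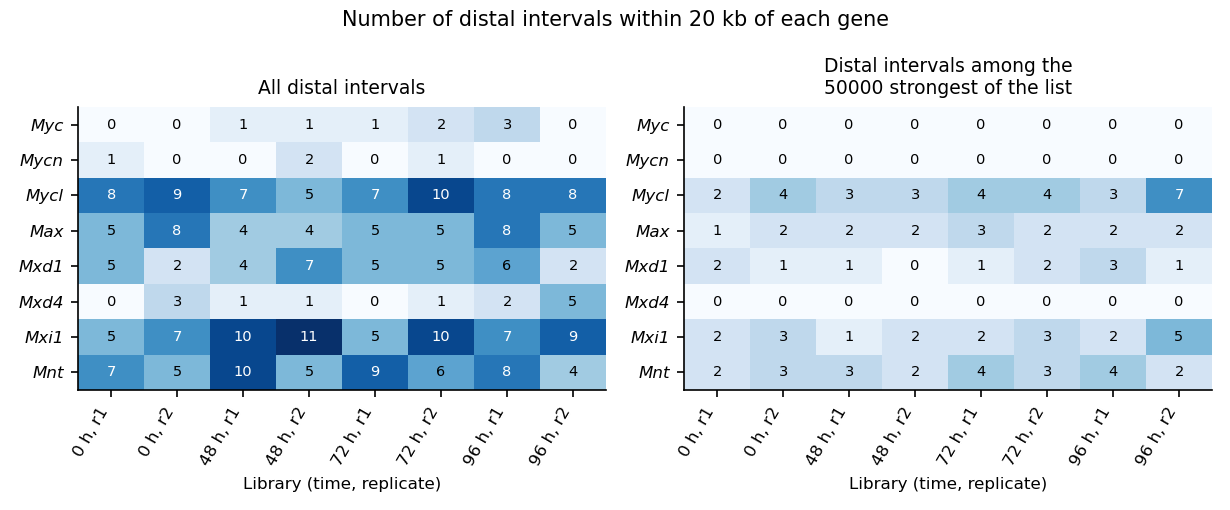
Number of distal intervals (printed and shaded) within the gene body and 20 kb either side for the 8 genes (rows) in the 8 libraries (columns), in the full lists (left) and among the 50000 strongest intervals (right). In the full lists Mycl, Mxi1 and Mnt have the highest medians (8.0, 8.0 and 6.5), though not the most in every library. Myc, Mycn and Mxd4 have 0 among the strongest intervals in all libraries.

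The wider network was examined by lists named for this purpose. Of the extended network (Mxd3, Mga, Mlx, Mlxip, Mlxipl), 4 of 5 promoters were tested (Mlx, listed at percentiles of 38.5 to 63.7, was not), 0 were called and their median difference at 48 h was 0.09, with the largest at Mga (0.34) and Mlxip (0.17). At 72 h their median was -0.40, against -0.05 over all coding promoters, and 1 of 4 (Mxd3, -0.55 ± 0.24, limma adjusted p = 0.767, named after its value was seen) was lower at an unadjusted p under 0.05, as were 1.9% of coding promoters. At 96 h the median was -0.08. Of cofactors and regulators of the Myc protein 12 of 12 were tested and 0 called, with a median of 0.007 for 48 h, -0.16 for 72 h and -0.04 for 96 h. The largest differences at 48 h were at Ruvbl1 (-0.32), a chromatin remodelling ATPase, and Trrap (-0.28), a scaffold of acetyltransferase complexes. Of known targets of Myc, most of them ribosome biogenesis and metabolic genes, 20 of 20 were tested, 0 were called, 0 were higher and 2 lower at an unadjusted p under 0.05, and the median was -0.19 at 48 h. The median over 13100 coding promoters was -0.002, and 2.76% of these were higher and 2.71% lower at that p. The 2 lower ones were Nop58, a nucleolar protein gene (-0.77, adjusted p = 0.367 by limma), and Srm, which encodes spermidine synthase (-0.62, adjusted p = 0.5 by limma, named after its value was seen). Rcc1, which encodes an exchange factor of Ran, had the second largest difference at 48 h (-0.71) but was not among them, and the largest positive difference was at the nucleolar protein gene Gnl3 (0.46, also named after its value was seen). Nop58 had percentiles of 83.4 and 88.3 for 0 h and 66.9 and 70.5 for 48 h. The median of the targets was -0.19 at 72 h and -0.02 at 96 h, against -0.05 and 0.007 over all coding promoters. At that p 0 targets were higher and 0 lower at either time, where 1.63% of coding promoters were higher and 1.9% lower for 72 h, and 1.32% and 1.0% for 96 h. Between 48 h and 96 h it was 0.09, against 0.005 over all coding promoters, and 1 target was higher at 96 h (Eif4a1, 0.84 ± 0.33, limma adjusted p = 0.601, named after its value was seen), as were 1.64% of coding promoters.

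The coding promoters most like Myc promoter 1 in their course over the 8 libraries were Nfatc3 (Pearson r = 0.966), Rcor3 (r = 0.961) and Nr3c1 (r = 0.953), out of 13100 compared. Nr3c1 encodes the glucocorticoid receptor. The libraries are shared by all promoters, and with 8 points the highest of many coefficients is a description only.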

How the data were processed

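Bulk ATAC-Seq was analysed from 8 libraries, 2 at each of 4 time points, grouped by their labels. More replicates of some times are described in the study's text, and none beyond these 8 was used. Per the study's methods, the authors trimmed reads, aligned them to mm10 with Bowtie2, removed PCR duplicates and called peaks per library with MACS2. The deposited lists give each peak's fold enrichment over background, −log10 p, −log10 q and summit, and reach down to p of about 0.01. They hold no read counts, so depth and counting error are unknown and the study's count-based test was not run.

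Lines sharing an interval were collapsed to that with the highest −log10 p and ranked. Regions were the merged 50000 strongest intervals of each library. For regions listed in all 8 libraries, log2 fold enrichment was quantile-normalised and fitted with limma (version 3.58.1, R 4.3.3) with 1 mean per time point, with Benjamini-Hochberg adjustment over 55123 regions. The fit was tested on simulated data. A promoter was 1 kb either side of a TSS (GENCODE M21), and distal regions were over 1 kb from any TSS. Sequences came from GRCm38.p6, in which 0 intervals ended past a chromosome end, and RefSeq promoters of the same assembly. Motifs were matched within 300 bp around the summit, reading either strand.

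The members, gene lists and tests were chosen with earlier results of these data known. Named were all 8 members, the strongest promoter and distal region of each, each region called, gained or lost, the 2 distal regions with the largest difference in each direction at 48 h, the 3 promoters most correlated with Myc, and 2 genes per list. Marker lists covered hepatocytes, Kupffer cells, endothelial cells, stellate cells, cholangiocytes and lymphocytes. Alternatives changed the scaling, the measure, the number of intervals, the q filter, the window and the libraries, and a fit with the replicate number as a block was made.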

Additional observations from a re-analysis of the deposited data

How the results depend on the processing

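Under the 16 alternative fits of limma and with no limit on the fold, 0 member regions and 0 of all regions were called in the 4 contrasts, so these counts say nothing about the stability of the members. In 8 of these fits 1 library is left out, and the lone library of its time point is assumed to vary like those of the other groups. The lowest adjusted p of a member region over these settings was 0.285 at 48 h, 0.536 at 72 h, 0.528 at 96 h and 0.349 for 96 h versus 48 h, and the number of all regions at an unadjusted p under 0.05 at 48 h was 2984 to 6260. Same-numbered replicates showed no strong shared deviation (r of -0.056 to 0.128 between time points). These values cannot show whether such libraries were prepared together. With the replicate number as a block, 0 member regions were called. On the fold enrichment scale, Mycl distal 1 kept its direction at 48 h (-1.07 to -0.85) and so did Mycl distal 2 (-1.001 to -0.63) in the fits that held it. Of the 16 alternative fits 13 held it, and it was not tested with q under 0.05, with the 25000 strongest intervals or without 96 h replicate 2. The other named regions were held by 14 to 16 of them. From 48 h to 96 h Mycl distal 2 ranged over 0.33 to 0.96.

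Regions lost or gained at 48 h (2) came to 4 with all intervals, 0 with absence from the full lists, and 4 to 6 with 1 library left out (all regions 6.14%, then 2.76%, 0.195% and 11.5% to 16.3%). Those at 72 h (1) came to 2, 0 and 3 with all intervals, full lists and at least 50% of the region covered, and 1 to 6 with 1 library left out (all regions 5.62%, then 3.51%, 0.0638%, 7.19% and 10.9% to 15.1%). Those at 96 h (0) came to 2 with 25000 intervals, 1 with all, 3 with at least 50% covered, and 0 to 6 with 1 left out (all regions 4.65%, then 5.33%, 2.5%, 5.99% and 9.61% to 14.9%). Promoters whose groups did not overlap numbered 6 to 8 at 48 h, 5 to 7 at 72 h and 5 to 7 at 96 h with 1 library left out (6, 4 and 4 with all), and the share of all coding promoters was 65.1% to 75.2%, 67.3% to 75.2% and 58.2% to 73.3% (42.5%, 42.9% and 34.2% with all). The median number of distal intervals was 28.5 at 10 kb and 77.0 at 50 kb, against 35.0 at 20 kb.

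With 1 library left out, the difference at 48 h ranged over 0.13 to 0.51 for Myc promoter 1, 0.23 to 0.57 for Mycl promoter 1, 0.17 to 0.48 for Mxd4 promoter 1, 0.20 to 0.58 for Max distal 1, -0.66 to -0.34 for Mycn promoter 2, -0.73 to -0.29 for Mxi1 distal 4 and -0.36 to -0.14 for Mnt distal 5. Among the named regions followed at 48 h, signs turned only where the difference was under 0.4 in size. The other tested regions were not followed over the alternatives. Under median centring the difference at 48 h was -0.026 for Mycl distal 3. With −log10 p it was -0.43 for Mxd1 promoter 1 and -0.44 for Mnt promoter 1, and with the logit of the percentile 0.075 for Max distal 2, -0.94 for Mxd1 promoter 1 and -0.52 for Mnt promoter 1. With 1 library left out the range was -0.076 to 0.087 for Mycl distal 3, -0.14 to 0.21 for Mxd1 promoter 1, -0.13 to 0.14 for Mnt promoter 1, -0.31 to 0.24 for Max distal 2, -0.15 to 0.071 for Max promoter 1, -0.081 to 0.018 for Mxi1 promoter 4 and -0.82 to 0.14 for Mxd1 distal 1. The cause of these changes was not tested.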
